A study of Saccharomyces cerevisiae with 11 samples.

Results

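The 50 genes described here are yeast open reading frames that carry only a systematic name and whose RNA stood well apart from control after arsenate exposure at low phosphate. A systematic name gives the chromosome, the arm, the order along it and the strand (W or C) of a reading frame, and it stays in use while a gene has no symbol of its own. The platform table of the low phosphate arrays lists 422 such genes, of which 391 had a value on at least 1 array and 266 on all 6. Members were the 50 of these 266 with a mean log2 ratio of 0.8 or more in either direction at 4, 8 or 10 h, out of 5527 genes measured in all. The other 125 unnamed genes with a value lacked it on at least 1 array and could not be members. In the RefSeq gene table (assembly R64), 49 members are present and still carry the systematic name as their symbol, and YAR062W is not listed there.

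The series exposed Saccharomyces cerevisiae strain S288C, the reference laboratory strain, to 2 μM arsenate and compared it with cultures given sodium chloride in its place. The medium held 100 μM phosphate (low phosphate, 6 arrays with 2 each at 4, 8 and 10 h) or 1 mM phosphate (high phosphate, 5 arrays with 2 at 4 h, 2 at 8 h and 1 at 10 h). Each array set arsenate RNA in Cy5 against control RNA in Cy3, so a gene's preference for a dye is part of every ratio. Low and high phosphate were run on different array designs and cannot be told apart from them. Nothing in the labels tells separate cultures from repeat hybridisations among the replicates.

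Arsenate is a chemical analogue of phosphate that enters yeast through phosphate carriers and is reduced to arsenite inside the cell. Exposed cells are known to shift their RNA between growth genes, which build ribosomes and charge transfer RNA, and stress genes, which encode chaperones, reductases and enzymes of storage sugars. Many unnamed reading frames belong to such programmes only by the company their RNA keeps, because the proteins have not been studied in detail, while some encode enzymes whose activity is known although no symbol was assigned. The roles given below are background from general knowledge of yeast and were not checked against product descriptions.

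All values below are log2 ratios of arsenate over control, averaged over the spots of a gene and centred on the gene median of each array, so 1 is a 2-fold difference. The arrays held values for 4484 to 5451 genes. At low phosphate the replicate pairs had correlations over genes of 0.767 (4 h), 0.936 (8 h) and 0.836 (10 h), and at high phosphate of 0.547 (4 h) and 0.199 (8 h). The lowest correlation between any pair of arrays of a condition was -0.00238. RNA was taken from whole cultures, so fewer cells with a transcript and less of it per cell cannot be told apart. The low phosphate values chose the members and are therefore described without a test.

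At low phosphate 47 of the 50 members reached 0.8 at 1 time, 3 at 2 times and 0 at all 3, and 0 did so in both directions. Of the 823 genes past the same threshold on all 6 arrays, named or not, 82.4% reached it at 1 time. At 4 h, 5 members were higher and 9 lower, against 1.01% and 2.46% of the 4747 genes measured on all 6 arrays. At 8 h, 15 were higher and 16 lower (9.8% and 3.24% of all genes), and at 10 h 2 were higher and 6 lower (2.09% and 1.98%). The shares are of all genes. Member counts should be set against them out of the 266 unnamed genes measured on all 6 arrays, not out of the 50. By the same threshold at any time, 18.8% of the 266 passed, against 17.3% of all 4747 genes. Of the 4481 genes that have a symbol, 773 (17.3%) did. The members carry these values because they were chosen by them. Both arrays of the time were past 0.8 for 10 of the 14 members at 4 h, for 22 of 31 at 8 h and for 7 of 8 at 10 h. Over all genes past the threshold at those times the shares were 58.8%, 86.1% and 73.1%.

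**Figure D1:**
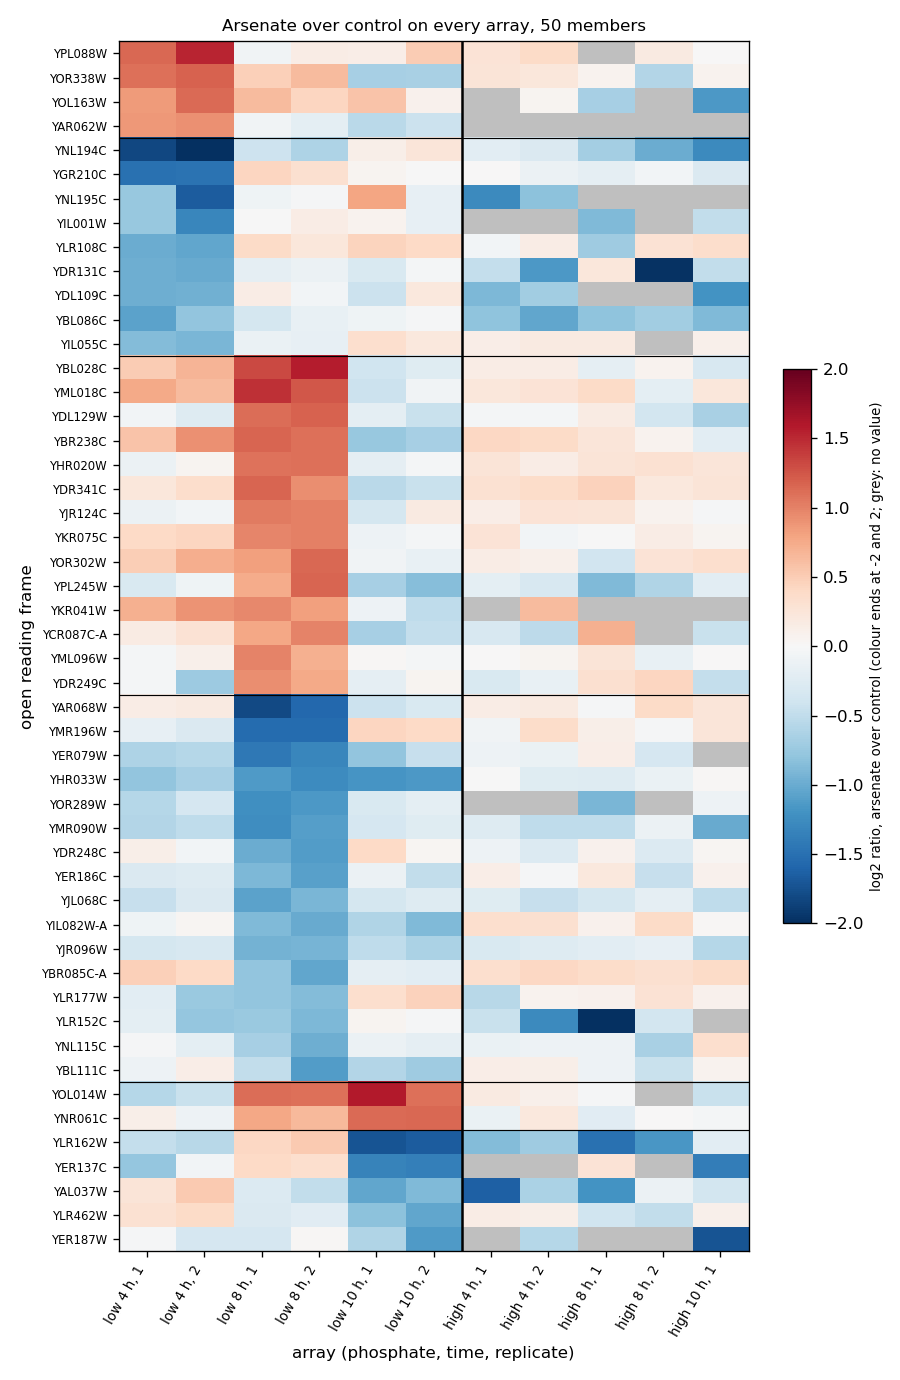
Log2 ratio of arsenate over control for each of the 50 members (rows) on each of the 11 arrays (columns; the vertical line parts low from high phosphate), with rows grouped by the time and direction of the largest low phosphate mean and grey where an array had no value. The 2 replicate columns of a low phosphate time look alike in most rows, and the blocks of colour at 4, 8 and 10 h hold largely different members.

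The members that were lowest at 4 h included a pair of adjacent genes, YNL194C and YNL195C. YNL194C encodes a membrane protein of the Sur7 family, which sits at eisosomes, the furrows of the plasma membrane. It stood at -1.83 and -4.58 on the 2 arrays at 4 h, at -0.42 and -0.62 on the 8 h arrays and 0.12 and 0.25 on the 10 h arrays. Both 4 h arrays were below every later array, but they lay far apart (SD 1.94, n = 2), and only 1 of the 2 spots of the gene had a value on them. Its neighbour YNL195C, a paralog of the polarity protein gene HBT1, stood at -0.76 and -1.66 on the 4 h arrays, -0.09 and -0.03 on the 8 h arrays and 0.78 and -0.17 on the 10 h arrays. The second 4 h array was the lower for both genes.

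The other 7 members lower at 4 h had means between -0.89 and -1.49. YGR210C, which encodes a protein similar to GTPases of the Obg family, was the steadiest at -1.49 and -1.48 on the 4 h arrays, then 0.42 and 0.32 at 8 h and 0.05 and -0.01 at 10 h. YDR131C, an F-box protein that brings substrates to a ubiquitin ligase, had means of -0.99 (SD 0.03, n = 2) at 4 h, -0.16 at 8 h and -0.18 at 10 h. YDL109C, a putative lipase, had a mean of -0.97 (SD 0.01, n = 2) at 4 h and lay at 0.05 and -0.11 later. YIL001W, YLR108C, YBL086C and YIL055C had means of -1.04, -1.01, -0.94 and -0.89 at 4 h, and YLR108C was at 0.42 by 10 h. Of all 9 members, 8 had a mean within 0.5 of zero at 8 h and 9 at 10 h, against 55.6% and 81.2% of the 117 genes lower at 4 h by the same threshold.

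Among the 5 members higher at 4 h, the highest was YPL088W, a putative aryl alcohol dehydrogenase of the aldo-keto reductase type. It stood at 1.16 and 1.53 on the 4 h arrays, -0.07 and 0.16 on the 8 h arrays and 0.14 and 0.51 on the 10 h arrays, so the 4 h arrays lay above all others. YOR338W, a paralog of FUN19, went from 1.11 and 1.18 at 4 h through 0.47 and 0.63 at 8 h to -0.66 and -0.64 at 10 h, with no overlap between times. YOL163W, which encodes part of a transporter of the Dal5 family, had means of 1.00, 0.53 and 0.33 at the 3 times. YAR062W, which has no entry in the RefSeq gene table, had means of 0.89, -0.14 and -0.48. YKR041W was higher at both 4 h (0.81; SD 0.13, n = 2) and 8 h (0.89; SD 0.10, n = 2) and stood at -0.30 at 10 h.

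Of the 15 members higher at 8 h, YBL028C, which encodes a nucleolar protein found with precursors of the large ribosomal subunit, had the highest mean. It stood at 0.51 and 0.69 on the 4 h arrays, 1.32 and 1.58 on the 8 h arrays and -0.40 and -0.25 on the 10 h arrays. YCR087C-A, whose product is known to be located in the nucleolus, had means of 0.22, 0.89 (SD 0.15, n = 2) and -0.57. Both were thus above control at 8 h and below it at 10 h on every array of those times.

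YHR020W and YDR341C encode enzymes that charge transfer RNA, the prolyl and arginyl synthetases of the cytosol. YHR020W stood at -0.11 and 0.06 on the 4 h arrays, 1.09 and 1.10 on the 8 h arrays and -0.18 and -0.05 on the 10 h arrays. YDR341C stood at 0.23 and 0.34, at 1.16 and 0.93, and at -0.53 and -0.44 at the same times. In both, the 8 h arrays lay above all others. The remaining cytosolic synthetases, which have symbols, give the setting, although this set was assembled after the members were known. All 19 that were measured were above zero at 8 h, with a median of 0.62 and a range from 0.35 for GUS1 to 1.26 for GLN4, and 6 of them reached 0.8. At 10 h their median was -0.08, with 6 above and 13 below zero. Only GLN4 exceeded YHR020W and YDR341C at 8 h, and CDC60 at 1.02 lay below YDR341C by less than the SD of that member (0.17, n = 2).

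**Figure D2:**
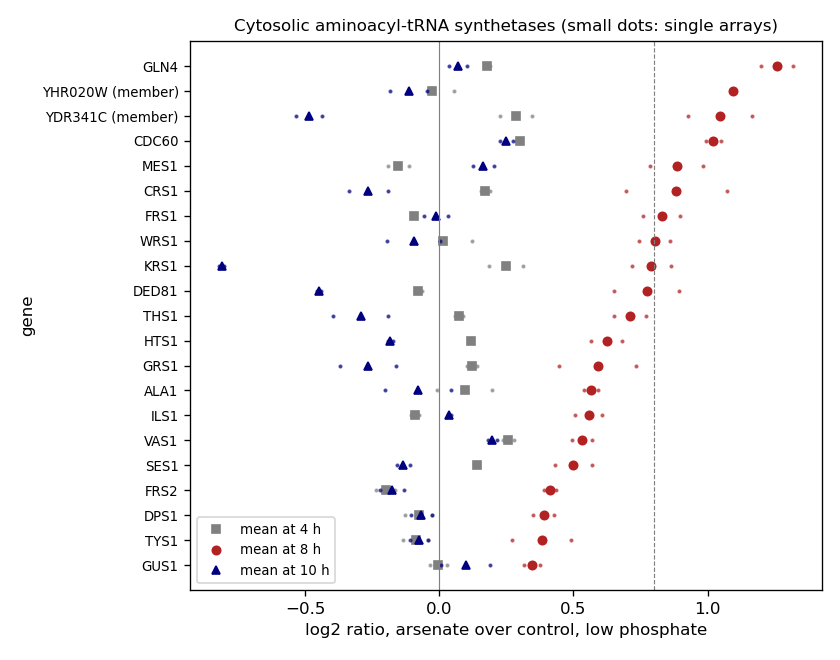
Mean log2 ratio of arsenate over control at 4, 8 and 10 h of low phosphate (large symbols) and single arrays (small dots) for the 21 cytosolic aminoacyl-tRNA synthetases with values on all 6 arrays, ordered by the 8 h mean, with a dashed line at 0.8. All 8 h means lie between 0.35 and 1.26 and to the right of the 4 h and 10 h means of the same gene.

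YOR302W is the short reading frame in the leader of CPA1, whose peptide regulates CPA1 translation in response to arginine. It stood at 0.49 and 0.73 on the 4 h arrays, 0.82 and 1.14 on the 8 h arrays and -0.07 and -0.15 on the 10 h arrays. CPA1 itself, a subunit of carbamoyl phosphate synthetase, had means of 0.31, 0.62 and -0.39, in the same order of times. The reading frame has 78 bases and shares a transcript with CPA1, so the probes of both may report the same RNA. Its 2 spots differed by 1.08 on the second 8 h array, the largest gap between spots among the 31 members with 2 spots. YML096W, which has a domain like that of asparagine synthetases, had a mean of 0.85 (SD 0.20, n = 2) at 8 h, beside 1.03 for ASN1 and 0.32 for ASN2, the asparagine synthetase genes.

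Proteins of membranes and mitochondria were also among the members higher at 8 h. YML018C, a paralog of THI74 whose product resembles transporters of the vacuolar membrane, stood at 0.76 and 0.64 on the 4 h arrays, 1.45 and 1.24 on the 8 h arrays and -0.43 and -0.07 on the 10 h arrays. YBR238C, a mitochondrial protein and paralog of RMD9, stood at 0.57 and 0.92, at 1.16 and 1.10, and at -0.75 and -0.67. YJR124C, which resembles transporters of the major facilitator superfamily, had a mean of 1.02 (SD 0.02, n = 2) at 8 h and -0.09 at both other times. YDL129W, YKR075C, YPL245W and YDR249C, whose functions are not known, had 8 h means of 1.15, 0.99, 0.95 and 0.84. Of the 15 members, 14 had a mean below zero at 10 h, and 11 were below zero on both 10 h arrays. The exception in the mean was YOL014W. Of all 465 genes higher at 8 h by the same threshold, 55.5% had a 10 h mean below zero and 51% both arrays.

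The 16 members lower at 8 h held several enzymes of carbonyl and sugar metabolism. YJR096W, an aldo-keto reductase that acts on xylose and arabinose, had 8 h values of -0.95 and -0.93, and means of -0.33 at 4 h and -0.58 at 10 h. YJL068C, the S-formylglutathione hydrolase of formaldehyde detoxification, had 8 h values of -1.07 and -0.92, and means of -0.38 and -0.30 at 4 and 10 h. YDR248C, a putative gluconokinase, had an 8 h mean of -1.06 (SD 0.08, n = 2), with 0.12 and -0.05 on the 4 h arrays and 0.40 and 0.04 on the 10 h arrays. All 3 were below control on both arrays at 8 h, and the first 2 on all 6 arrays. On the second 4 h array YDR248C and 1 spot of YJR096W had the same value, -0.0533, which may not be a measured level.

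Relatives of these enzymes did not move as a block. Among other aldo-keto reductases, GRE3 had an 8 h mean of -1.24 and GCY1 of -1.44, ARA1 lay at -0.67 and YPR1 at 0.05. SFA1, the dehydrogenase that acts before YJL068C in formaldehyde detoxification, was at 0.62 at 8 h, on the other side of zero from the hydrolase. GND2, a 6-phosphogluconate dehydrogenase that uses the product of gluconokinase, was at -3.27 at 8 h, while its isozyme GND1 was at 0.18. These relatives were picked after the members were known.

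The lowest member at 8 h was YAR068W, a gene near a chromosome end. It stood at 0.14 and 0.18 on the 4 h arrays, -1.80 and -1.57 on the 8 h arrays and -0.44 and -0.31 on the 10 h arrays. YMR196W, of unknown function, stood at -0.17 and -0.29, at -1.54 and -1.54, and at 0.43 and 0.40, so the 3 times did not overlap. YER079W stood at -1.44 and -1.30 on the 8 h arrays with means of -0.59 and -0.63 before and after. YOR289W and YMR090W had 8 h means of -1.19 (SD 0.05, n = 2) and -1.17 (SD 0.10, n = 2). Of the 16 members, 12 had a mean below zero at 4 h and 12 at 10 h, against 72.1% and 59.7% of the 154 genes lower at 8 h.

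YHR033W was lower at both 8 h and 10 h. It is a paralog of PRO1, the kinase that starts proline synthesis, and stood at -0.78 and -0.67 on the 4 h arrays, -1.14 and -1.25 on the 8 h arrays and -1.19 and -1.15 on the 10 h arrays. All 6 arrays were below -0.6. PRO1 had means of -0.13, 0.66 and -0.09 at the same times. The pair thus lay on opposite sides of zero at 8 h, by -1.20 for YHR033W and 0.66 for PRO1.

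Repeated elements were represented by 3 members. YIL082W-A is a Gag-Pol reading frame of the retrotransposon Ty3 and had means of -0.02, -0.94 (SD 0.08, n = 2) and -0.74 (SD 0.19, n = 2). YBL111C and YLR462W resemble the helicases encoded in subtelomeric Y' elements. YBL111C had means of 0.01, -0.80 and -0.65 and YLR462W of 0.35, -0.26 and -0.93. Copies of such elements are nearly identical, and the probe sequences were not used here, so each value may come from several copies. YBL111C was also the member nearest the threshold, with 8 h arrays at -0.49 and -1.12.

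The remaining members lower at 8 h were YER186C, YBR085C-A, YLR177W, YLR152C and YNL115C. YBR085C-A, a short protein, turned from 0.47 and 0.39 at 4 h to -0.80 and -1.04 at 8 h and to -0.18 and -0.20 at 10 h. YLR177W, a paralog of PSP2, had means of -0.48, -0.83 and 0.40. YER186C had an 8 h mean of -0.997 (SD 0.13, n = 2). YLR152C and YNL115C, at -0.82 each, lay just inside the threshold.

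At 10 h 2 members were higher. YOL014W, of unknown function, stood at -0.57 and -0.44 on the 4 h arrays, 1.12 and 1.10 on the 8 h arrays and 1.59 and 1.10 on the 10 h arrays. YNR061C had means of 0.00, 0.71 and 1.14 (SD 0.02, n = 2). Both were above control on all 4 arrays of the later times.

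The 6 members lower at 10 h were led by YLR162W, a gene known because its overexpression protects yeast from a plant antimicrobial peptide. It stood at -0.48 and -0.56 on the 4 h arrays, 0.42 and 0.52 on the 8 h arrays and -1.72 and -1.67 on the 10 h arrays, and both of its spots were low at 10 h. YER137C followed the same course less steadily, with -0.78 and -0.05 on the 4 h arrays, 0.41 and 0.33 on the 8 h arrays and -1.34 and -1.37 on the 10 h arrays. In both genes the 8 h arrays were above zero and the 10 h arrays below -1. The value of YER137C on the second 4 h array, -0.0533, was also that of YDR248C and HBT1. It may not be a measured level. YAL037W had means of 0.39, -0.39 and -0.96 (SD 0.11, n = 2), but its SD hides a gap between its 2 spots. Only 1 spot had a value on the first 10 h array, and on the second they stood at -0.49 and -1.28. The lower value was also that of YJR154W on that array and may not be a measured level. YER187W had a 10 h mean of -0.87 with arrays at -0.60 and -1.13.

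**Figure D3:**
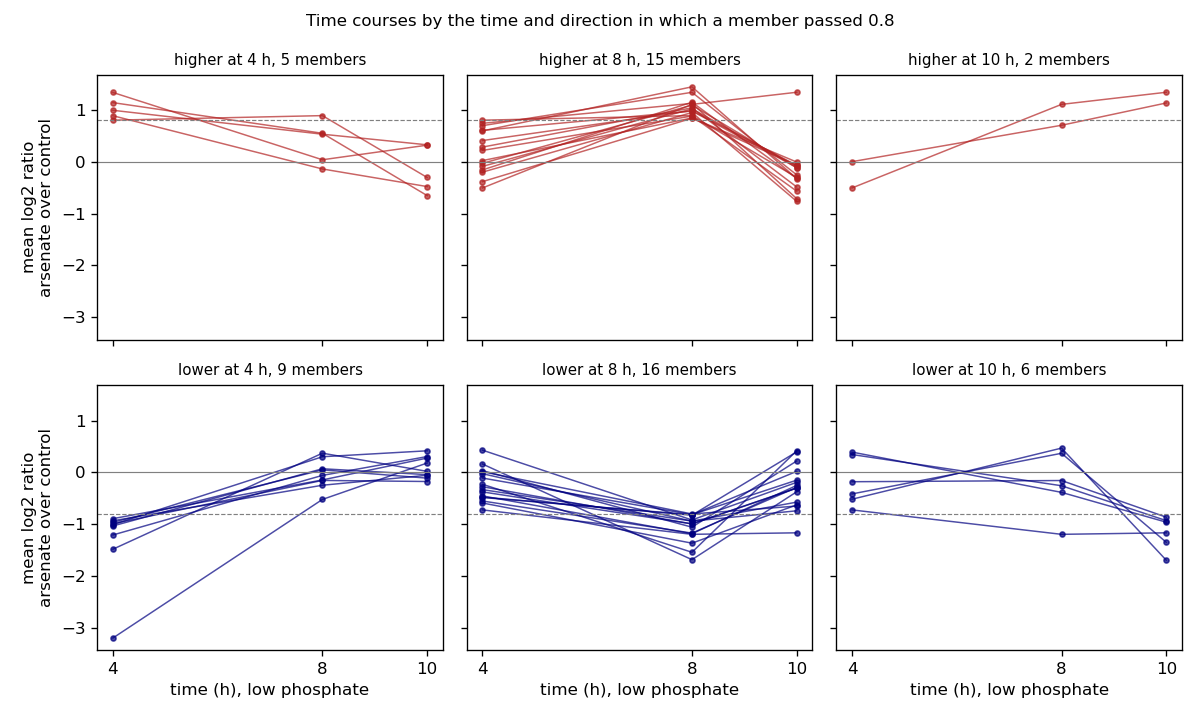
Mean log2 ratio of arsenate over control against time at low phosphate, 1 line per member, in panels by the time and direction in which the member reached 0.8 (dashed line); a member past the threshold at 2 times appears in 2 panels. The lines of the 15 members higher at 8 h end below zero at 10 h in all cases but YOL014W, some only just. Those of the 9 members lower at 4 h lie near zero later.

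The groups can be read against lists of genes with known roles, chosen with earlier results of these data known. In limma's moderated test with Benjamini-Hochberg adjustment over 5207 genes, 17.1%, 27.9% and 20% of all genes passed as higher at 4, 8 and 10 h, and 17.8%, 22.8% and 20.5% as lower. Of 47 ribosome biogenesis genes, 32, 47 and 1 passed as higher at the 3 times and 0, 0 and 44 as lower, with medians of 0.36, 1.04 and -0.66. The 15 members higher at 8 h had medians of 0.22, 1.02 and -0.25 at the same times, and all genes measured throughout had medians of -0.0019, 0.02 and 0.02. Of 37 general stress response genes, 0, 0 and 8 were higher and 27, 36 and 8 lower, with medians of -0.73, -1.38 and 0.03. The 16 members lower at 8 h had medians of -0.31, -0.996 and -0.30. The rule put the 8 h medians of both member groups far from zero, so their likeness to a list at 8 h tests nothing. At 10 h, 14 of the 15 members higher at 8 h had a mean below zero, against 55.5% of all 465 genes higher at 8 h. On both 10 h arrays 11 were below zero, against 51%. Some of these means lay close to zero, such as -0.005 for YML096W and -0.07 for YDR249C. The 10 h arrays were also part of the rule, and the contrast was not tested. Of the 16 members lower at 8 h, 12 had a 10 h mean below zero, against 59.7% of all 154 such genes. Of 21 genes of the PHO regulon, which answers phosphate starvation, 11, 0 and 0 were higher and 3, 21 and 7 lower, with medians of 0.25, -1.11 and -0.11. Of 28 sulfur assimilation genes, 16, 25 and 20 were higher and 0 lower at the 3 times. Without centring of the arrays the calls over all genes were 956 higher and 1590 lower at 8 h, against 1451 and 1186 with it, and 1049 and 667 at 10 h, against 1041 and 1065. At 10 h the PHO regulon then had 2 genes lower.

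For the members that were highest or lowest at a time, the genes with a symbol that lay nearest in the 6 low phosphate values were found by root mean square difference. For YBL028C they were IPI3 (0.13), a factor of large subunit assembly, and SNU13 (0.14), a protein of small nucleolar ribonucleoproteins. For YAR068W they were CSS1 (0.17) and HPF1 (0.22), a cell wall mannoprotein, with 8 h means of -1.82 each. For YPL088W they were SRL3 (0.25) and the flavin monooxygenase FMO1 (0.26), with 4 h means of 1.25 and 1.22. The distances were larger for the others. For YOL014W they were the hexose transporter HXT1 (0.31) and the ammonium permease MEP2 (0.37), for YLR162W the RNA-binding protein gene RNP1 (0.51) and the aquaporin gene AQY2 (0.53), and for YNL194C the chaperones HSP78 (0.84) and HSP42 (0.85). The distance for YNL194C was set by its second 4 h array.

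Genes next to members on the chromosome, taken from the RefSeq gene order, were read from the spots assigned to them. Probe sequences were not used here, so values of members and neighbours, YAR068W and PHO11 among them, may also come from similar genes. YGR210C and ZPR1, which encodes a zinc finger protein that assists elongation factor folding, are transcribed away from each other. ZPR1 stood at -1.73 and -1.85 on the 4 h arrays, 0.82 and 1.06 on the 8 h arrays and 0.25 and 0.19 on the 10 h arrays. The 2 genes had the same order of times, lowest at 4 h and highest at 8 h. Next to YAR068W lies PHO11, an acid phosphatase of the PHO regulon, at 0.60 and 0.54, at -2.30 and -2.31, and at -0.35 and -0.21. Next to YOL163W lies BDS1, a sulfatase, with means of 1.21, 0.70 and 0.46 beside 1.00, 0.53 and 0.33 for the member.

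Other neighbours shared a value with the member at some times and not at others. YMR196W follows ICY1 on the same strand, and ICY1 had means of 0.19, -2.13 and -0.75, so the genes shared the low 8 h value while the 10 h values lay on opposite sides of zero. YBL028C is transcribed away from the ribosomal protein gene RPL19B, which had means of 0.13, 1.26 and 0.81 and was thus above control at 10 h where the member was below it. YDR248C and YDR249C are both members and neighbours on the same strand, and at 8 h they stood at -1.06 and 0.84. On the other side of YDR248C, VHS1, a protein kinase gene, stood at -1.39 at 8 h. YER186C and YER187W, also neighbouring members and divergent, were low at different times. YHR020W shares its upstream region with DED81, the asparaginyl synthetase, at 0.77 at 8 h.

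**Figure D4:**
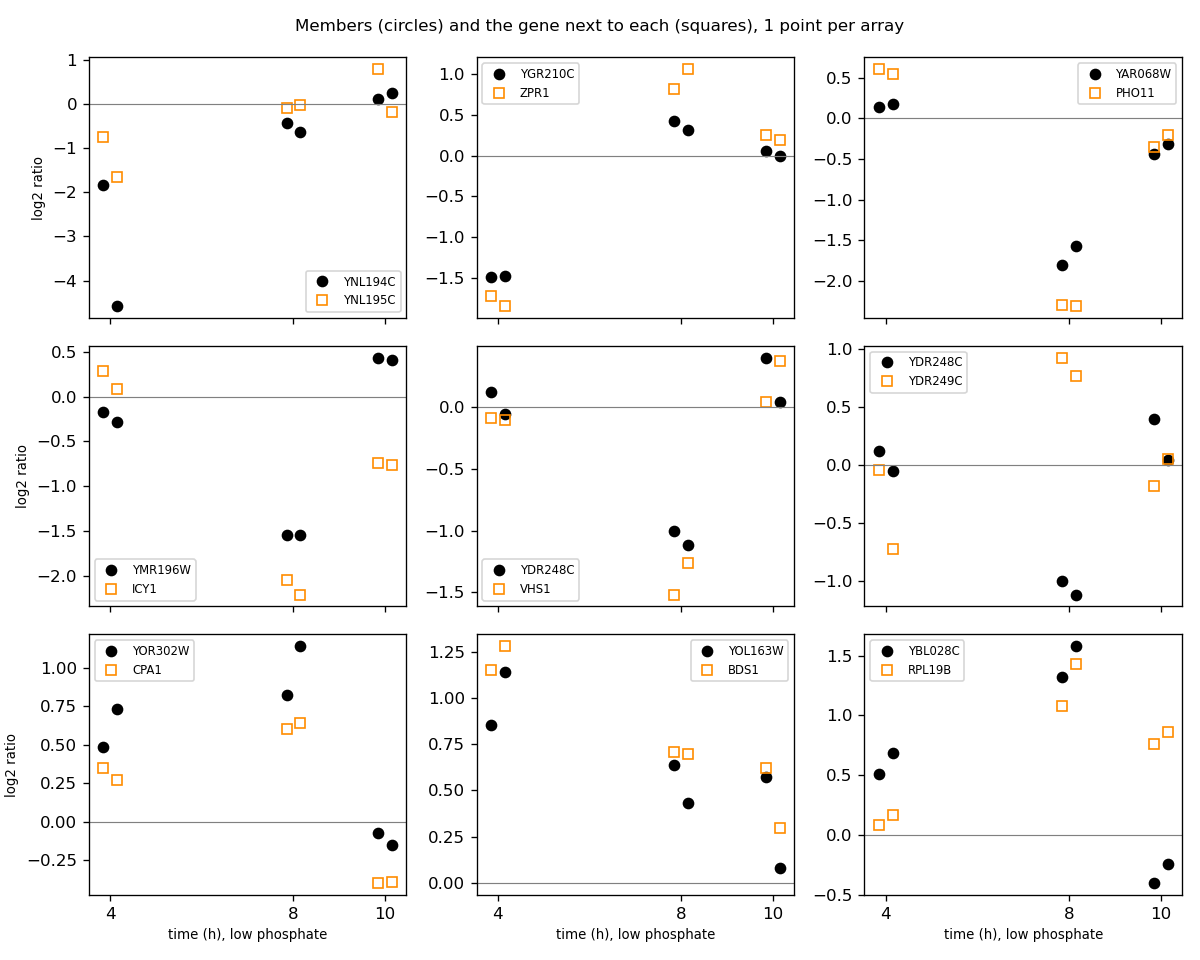
Log2 ratio of arsenate over control on each low phosphate array for 9 pairs of a member (circles) and the gene next to it (squares), against time, with replicates set side by side and a scale of its own for each panel. YGR210C with ZPR1 and YAR068W with PHO11 follow the same order of times, whereas YDR248C and YDR249C stand at -1.06 and 0.84 on the 8 h arrays.

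Neighbours past the threshold together with the member were a minority. Of 29 measured neighbours of the members higher at 8 h, 4 reached 0.8 in the same direction, where 9.8% of all genes did. For the members lower at 8 h it was 4 of 29 (3.24% of all genes), for those lower at 4 h 3 of 13 (2.46%), and for those higher at 4 h 2 of 7 (1.01%). At 10 h it was 0 of 1 for the higher and 1 of 6 for the lower members (2.09% and 1.98%). At 4 h, 2 of the 3 lower neighbours were YNL194C and YNL195C themselves, which the rule put past the threshold. The other neighbours counted are not members. Of the 49 members in the RefSeq table, 6 (12.2%) lay within the last 10 genes of a chromosome end, and of the 214 other unnamed genes measured on all arrays 12.6% did. The median gene length was 924 bases for members and 1049 for the others. For genes with 2 spots, the median gap between the spots of an array was 0.189 for 31 members and 0.188 for all 3576 such genes.

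High phosphate arrays took no part in choosing the members and give the only test of them. Averaged over the 3 times, 40 members had the values for a test, YAR062W had none, and 9 lacked a time. In limma's moderated test with Benjamini-Hochberg adjustment over 4941 genes, 0 members and 0 genes (0%) passed at 0.05, in the mean over times or at any single time. Before adjustment 12 of 40 members and 1605 of all genes (32.5%) had p under 0.05 in the mean over times. At 4, 8 and 10 h the unadjusted counts were 11, 10 and 9 of 40 members, against 19%, 23.1% and 12% of all genes. The lowest adjusted p of any gene was 0.0658 in limma's test. The members' median was -0.04, as was that of all genes. In the mean over times 1 of the 40 members reached 0.8 in either direction, as did 2.89% of all genes.

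Calls were made when either 8 h array, which correlated at 0.199, was left out. Then 8 h and 10 h had 1 array each, and the spread of a gene rested on its 4 h pair, with 1 residual degree of freedom. Without the first, 1584 of 4374 genes (36.2%) and 15 of 36 members passed in the mean over times. Without the second, 1582 of 4780 genes (33.1%) and 12 of 39 members did. Without both, 2 genes and 0 of 42 members passed. The members' count was thus a little above the share of all genes in the first of these fits and a little below it in the second.

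Among the 40 members tested at high phosphate, YBL086C had the mean over times farthest from zero. Of those that could not be tested, YLR152C stood at -0.44 and -1.28 at 4 h and at -3.95 and -0.37 at 8 h, below zero on all 4 arrays but far apart. YBL086C stood at -0.81 and -1.04 on the 4 h arrays, -0.80 and -0.69 on the 8 h arrays and at -0.89 at 10 h, a mean over times of -0.85 (95% interval -1.05 to -0.66, limma adjusted p = 0.0658). At low phosphate it was -1.08 and -0.79 at 4 h but -0.35 and -0.14 at 8 h and -0.08 and -0.03 at 10 h. Its 2 spots stood apart at the later times of low phosphate. They were at -0.004 and 0.03 against -0.70 and -0.32 on the 8 h arrays, and at 0.29 and 0.22 against -0.45 and -0.28 on the 10 h arrays. The -0.70 of 1 spot lay within the 8 h range of high phosphate. The 4 h values of both conditions lay in the same range, and the later averages over spots did not overlap. YNL194C followed the other course at high phosphate, with -0.20 and -0.29 on the 4 h arrays, a mean of -0.84 (SD 0.23, n = 2) for 8 h and -1.27 for 10 h, and a mean over times of -0.79 (interval -1.01 to -0.57, limma adjusted p = 0.0658). YLR162W was low at 4 h and 8 h of high phosphate, with -0.87, -0.71, -1.50 and -1.16, and stood at -0.20 at 10 h (mean -0.77, interval -1.01 to -0.54, limma adjusted p = 0.0658). All 3 missed the threshold with all arrays and passed it when either 8 h array was left out, with the spread then taken from the 4 h pair. For YBL086C limma's adjusted p ran from 0.0099 to 0.333 over the alternatives, the highest without the first 4 h array.

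The other members measured on all 5 high phosphate arrays and on 1 side of zero throughout had smaller means or wider spreads. YBR085C-A was between 0.32 and 0.41 on all 5 high phosphate arrays (mean 0.37, interval 0.21 to 0.53). YDR341C and YHR020W, the synthetases, were above zero on all 5, with means of 0.31 (interval 0.12 to 0.51) and 0.24 (0.08 to 0.40). YMR090W, YJR096W, YJL068C and YPL245W were below zero on all 5, with means of -0.57, -0.35, -0.38 and -0.40. YMR090W ranged from -0.12 to -1.01, and its mean was -0.35 without the 10 h array, while YPL245W ranged from -0.19 to -0.88. YAL037W, also below zero on all 5, ranged from -0.12 to -1.64 (mean -0.72, interval -1.44 to -0.00432). YIL082W-A, the Ty3 reading frame, was above zero on all 5 (mean 0.20, interval -0.01 to 0.41). Of the 35 members measured on all 5 high phosphate arrays, 8 were below zero on every array and 4 above, where 14% and 22.7% of 4107 genes were. For the 9 members of this paragraph, adjusted p ran from 0.0658 for YBR085C-A to 0.168 for YIL082W-A in limma's test, so no direction is established by it.

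Several members with large low phosphate values lay near zero on the high phosphate arrays of the same time. YGR210C, at -1.49 at 4 h of low phosphate, had 4 h values of 0.00 and -0.11 at high phosphate and a mean over times of -0.15 (interval -0.32 to 0.02). YMR196W, at -1.54 at 8 h of low phosphate, had 0.11 and -0.03 at 8 h of high phosphate (mean over times 0.14, interval -0.12 to 0.41). YAR068W, at -1.69, had -0.03 and 0.38 (0.19, interval -0.06 to 0.44). YBL028C, at 1.45, had -0.18 and 0.07 (-0.08, interval -0.27 to 0.12). The difference between conditions was not tested, since the low phosphate values chose the members and the array designs differed.

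**Figure D5:**
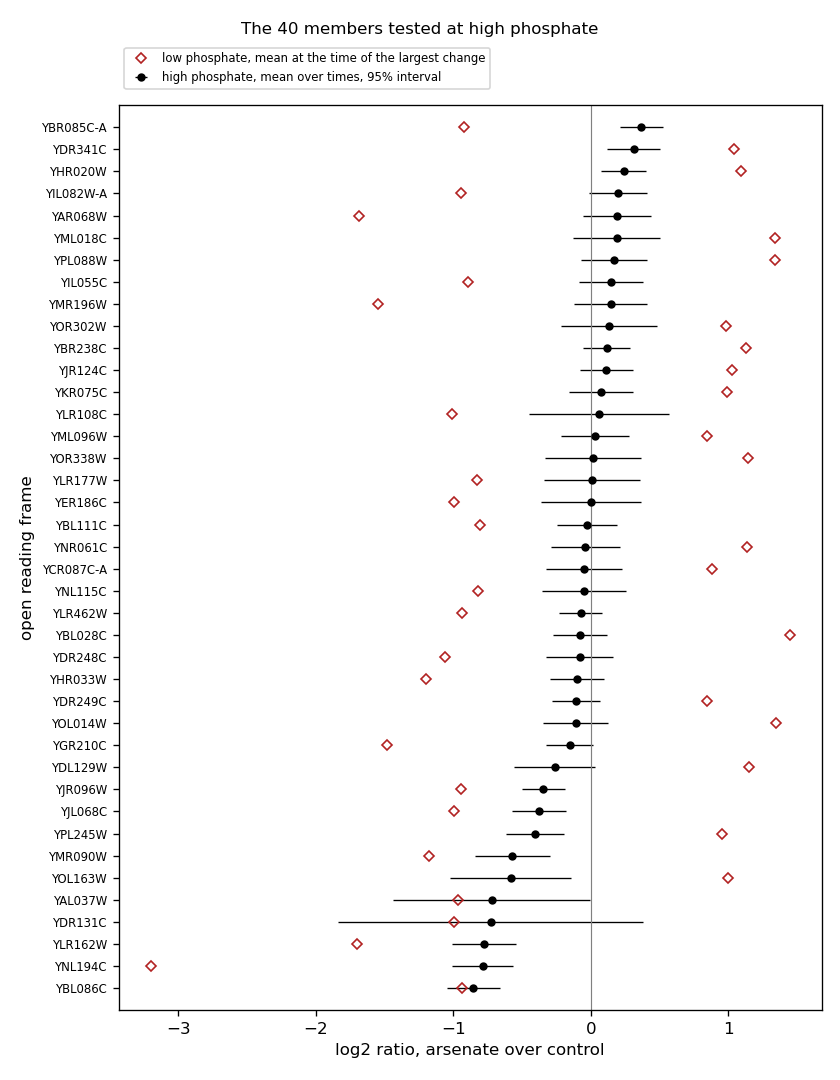
Mean log2 ratio of arsenate over control over the times of high phosphate with its 95% interval (black) for the 40 members tested there, beside the low phosphate mean at the time of each member's largest value (open diamonds). The black points lie between -0.85 and 0.37, and the diamonds lie at 0.8 or beyond because the rule chose the members so.

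The edge of the rule divided genes with like values. Just inside it lay YBL111C (-0.80 at 8 h), YNL115C (-0.82 at 8 h) and YLR152C (-0.82 at 8 h), and just outside it lay YLL053C (-0.80 at 10 h), YDL038C (0.79 at 4 h) and YJL070C (-0.78 at 4 h).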

How the data were processed

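RNA of arsenate and control cultures was compared on 11 arrays with 2 channels. Values were deposited as ratios, read here as log2 of Cy5 (arsenate) over Cy3 (control), which the authors normalized with spots of flag value 0, per the labels. The direction was taken from the dyes in the labels. Base 2 is an assumption. The normalization method is not given in the sources used here. Signal over background is unknown, and precision rests on how few arrays there were. Some unrelated genes shared a value on the same low phosphate array, at more than 1 level and on more than 1 array. On the second 4 h array YER137C, YDR248C and HBT1 had -0.0533, and YER187W and YOR289W had -0.333. On the first 4 h array 1 spot of YER137C and 1 of YMR090W had -0.593. On the second 10 h array 1 spot of YAL037W had the value of YJR154W, -1.283. Such values may not be measured levels, and their cause was not tested.

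Of the low phosphate spots 9202 named 1 of 5598 genes, and of the high phosphate spots 9271 named 1 of 5636. Unnamed spots were left out. Spots were averaged per gene, arrays were centred on their gene median (as deposited from -0.18 to 0.18 at low and from -0.14 to -0.01 at high phosphate), and each table was fitted with limma 3.58.1 in R 4.3.3 (1 coefficient a time; genes with a value at every time; two-sided; adjusted p under 0.05). For 10 h at high phosphate, with its single array, the spread of the other times was taken. Residual degrees of freedom were 3 at low and 2 at high phosphate, and prior ones 3.60 and 1.87. P-values measure only the spread between these arrays. The fit was tested on simulated data. Tables were made with Python 3.11.15, numpy 2.4.6, pandas 2.3.3 and scipy 1.17.1, and figures with matplotlib 3.10.9.

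Same-numbered low phosphate arrays deviated together weakly (r from 0.11 to 0.19 for the 3 pairs of times). No label pairs them, and values this small do not establish a pairing. The main fit used no replicate block. At high phosphate r was -0.02 for the 1 pair of times.

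The members, the lists and the relatives were chosen with earlier results of these data known. Members named were the 4 highest and 4 lowest at each time, those opposite at 2 times, near the threshold or next to another member. Other members were named by role or to complete a group, after their values were seen. Neighbours came from the RefSeq gene order (R64). Positions are not printed, as the build behind the probes is unknown here. Promoter and protein sequences were not used here, and the motif counts planned for them were not run.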

Additional observations from a re-analysis of the deposited data

Results flagged for a closer look

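Some members stood on opposite sides of zero at 2 times of low phosphate, on both arrays of each time and by at least 0.5 in each mean. The differences were not tested, because the values chose the members, and groups of 2 arrays were too small to look for single deviating samples. YBR238C, the mitochondrial paralog of RMD9, gave -1.84 for 10 h minus 8 h and -1.46 for 10 h minus 4 h. YOR338W, the paralog of FUN19, gave -1.8 for 10 h minus 4 h and -1.2 for 10 h minus 8 h. YPL245W gave -1.72 and YCR087C-A, the nucleolar protein, -1.45 for 10 h minus 8 h. YOL014W ran the other way, with 1.62 for 8 h minus 4 h and 1.85 for 10 h minus 4 h.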

How the results depend on the processing

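The rule gave 63 members without centring (47 of the 50 among them), 50 with the median of spots, 72 at a threshold of 0.7, 25 at 1, 37 with both arrays past 0.8 and 49 without YAR062W. With 1 low phosphate array left out it gave 48 to 61. No low phosphate mean that reached 0.8 changed sign under any of these settings. Without centring, 63 of 150 member means moved by more than their SD. The sizes of the groups moved as well. With an array of the time left out, the members lower at 4 h went from 9 to 8 or 7. Those lower at 10 h went from 6 to 8 or 5. Of the 50 members, 15 were higher at 8 h in the main setting, 11 without centring and 13 without either 8 h array. Lower at 8 h were 16 in the main setting, 16 without centring, 16 without the first 8 h array and 11 without the second. At high phosphate 0 genes passed under all settings run except those that left out 8 h arrays. With 1 array left out the genes called ran from 0 to 1584 in the mean over times, 0 to 40 at 4 h, 0 to 582 at 8 h and 0 to 20 at 10 h, and the members called from 0 to 15, 0 to 2, 0 to 7 and 0 to 1. Without both 8 h arrays, a setting chosen after the data were seen, 2 genes passed in the mean over times, 1 at 4 h and 1 at 10 h. With 1 low phosphate array left out, 1049 to 1706 genes passed at 4 h (1814 with all), 1609 to 2807 at 8 h (2637) and 1055 to 2295 at 10 h (2106), with the low ends where an array of that time was missing. The replicate block gave 1970, 2778 and 2294 genes at 4, 8 and 10 h of low phosphate and 0 at high phosphate. No member was called at high phosphate with or without it, and members were not tested at low phosphate.

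Among the 40 high phosphate means, none of which passed with all arrays, those near zero changed sign with the setting. Without centring the values were -0.088 for YER186C, -0.015 for YKR075C, -0.031 for YLR108C, -0.083 for YLR177W, -0.062 for YML096W and -0.073 for YOR338W. With the replicate block they were -0.066 for YER186C, -0.000576 for YML096W, 0.00982 for YNR061C and -0.039 for YOR338W. With 1 array left out the range was -0.119 to 0.048 for YBL028C, -0.082 to 0.028 for YBL111C, -0.084 to 0.149 for YCR087C-A, -0.132 to 0.076 for YDR249C, -0.109 to 0.116 for YER186C and -0.107 to 0.226 for YLR108C. It was -0.095 to 0.112 for YLR177W, -0.038 to 0.097 for YML096W, -0.243 to 0.042 for YNL115C, -0.096 to 0.019 for YNR061C, -0.121 to 0.057 for YOL014W and -0.091 to 0.127 for YOR338W. The cause was not tested.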

Other observations

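Unnamed genes that lacked a value on at least 1 low phosphate array could not be members, yet 22 of them had both arrays of some time and a mean past 0.8 there. At 8 h the lowest were YJL163C at -1.41 and -1.48, YMR317W at -0.97 and -1.88, YOL153C at -1.59 and -1.18, and YKL107W at -1.22 and -1.25. Above control at 8 h were YNL162W-A, with a mean of 0.99 (arrays 0.95 and 1.02), and YDL241W, which was above 1 on both arrays. At 4 h YOL024W had a mean of -1.06 and YPL113C of -1.01.

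At 10 h several of these genes are known to lie in subtelomeric regions, as YLR462W does among the members. YEL076C-A stood at -1.20 and -1.29, YPR202W at -1.15 and -1.12, YLR464W at -1.17 and -0.81, and YER189W at -1.05 and -0.73. Copies of subtelomeric elements are alike, so these values may not be independent of each other. YOL162W, which lies next to the member YOL163W, stood at 1.40 and 0.41 at 10 h. YLR161W, next to YLR162W, stood at -4.12 on the first 4 h array and had no value on the second.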
